A study of Mus musculus with 18 samples.

Results

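The livers compared here came from mice fed a high-fat diet (HFD) and from mice fed chow, and the 13268 genes (of 20512 listed) whose log2 values averaged 2 or more over the series were described. The comparison used 12 of the 18 RNA-seq libraries of the series, 6 HFD and 6 chow, each made from the liver of 1 mouse. All mice were male C57BL/6 and were 6 to 7 weeks old at the start. Chow gave 13% of kcal from fat and the HFD 60% of kcal from fat, each for 4 months, and the drinking water of every group held 0.2% DMSO. The third group, 6 mice on the HFD that also drank 3 mg of AC261066 per 100 ml for the last 2 months, entered only the gene filter and the shared fit. Mice were fasted overnight before the livers were taken, so the transcripts are those of fasted liver in each group. The values are log2 expression values per gene and library as the authors deposited them. The step to this scale is not given in the sources used here. Folds are therefore those of the deposited values and may differ from folds of counts. Genes of low level can spread little on this scale, such as *Adipoq* between -0.86 and -0.72 in chow and HFD libraries. How far the scale shapes small differences of low genes was not tested. The study gives an approximate sequencing depth per sample, but without counts the depth of each library is not known. Errors reflect how far mice of a group differed.

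The liver makes glucose during a fast, turns amino acid nitrogen into urea, oxidises, stores and exports fat, and secretes most plasma proteins. In mice many hepatic enzymes also differ between the sexes, under the control of the rhythm of growth hormone secretion. A long HFD is a standard model of fatty liver, in which hepatocytes fill with lipid droplets. In whole liver RNA, fewer cells of a type and less RNA per cell cannot be told apart.

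The values were those of liver. *Alb*, serum albumin, lay between 20.93 and 21.36 in chow and between 20.91 and 21.16 in HFD libraries on the log2 scale. Adipose tissue was not seen, since *Lep* was listed at 0 in every library and *Adipoq* lay between -0.86 and -0.72, under the minimum of 2, as did *Plin1*. *Prss1* of the pancreas was also listed at 0. Chow libraries 5 and 6 stood apart by their acute phase transcripts. *Saa1* was at 16.46 and 15.56 there and between 10.97 and 13.34 in the other 10 libraries (chosen after its values were seen). For every gene the mean over libraries 1 to 3 of the 3 groups equalled that over libraries 4 to 6, with a largest gap of 4.4e-14, so these sets were taken, from the values, as the batches whose means the authors had levelled. The labels name no batches. The mean level of a gene cannot be compared between the sets, while differences within a set are unaffected by the levelling. Overlap, means and SDs of 6, and lowest, median and highest values are taken over both sets. They also set libraries of 1 set against those of the other, and so rest on the levelling.

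With limma on the log2 values, fitted with a term for the set and called where the Benjamini-Hochberg adjusted p was below 0.1 (the threshold of the study), 3880 genes differed between HFD and chow livers, which is 29.2% of the genes tested. Of these, 1885 transcripts were higher in HFD livers (14.2%) and 1995 lower (15.0%). Most differences were small. The median was 0.31 for the higher and -0.27 for the lower genes. By at least 1, a doubling on the deposited scale, 75 genes were higher and 58 lower. The values of the 6 HFD and the 6 chow livers did not overlap for 1290 genes (9.72%), 554 of them higher (4.18%) and 736 lower (5.55%). Of the 3880 genes, 3853 had the same sign in both sets, which their choice over both sets favours. Within libraries 1 to 3 alone 2146 genes were called (16.2%), within libraries 4 to 6 alone 2645 (19.9%), and 826 in both, with the same sign for 806 of them. The shared genes are 38.5% of the calls in libraries 1 to 3 and 31.2% of those in libraries 4 to 6. The calls within a set leaned on single libraries, with 1029 genes without chow library 1, 894 without HFD library 2 and 710 without HFD library 3 in libraries 1 to 3, and 1093 without chow library 6, 1524 without HFD library 5 and 1584 without HFD library 6 in libraries 4 to 6. Only 8 genes (0.0603%) differed between the sets in their response to the diet at an adjusted p under 0.1, and 1449 (10.9%) did at an unadjusted p under 0.05. The 8 became 3 without chow library 2, 5 or 6 or HFD library 3 or 6, 4 without HFD library 2, and 15, 19, 25 and 54 without chow library 3, chow library 1, chow library 4 and HFD library 1.

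**Figure D1:**
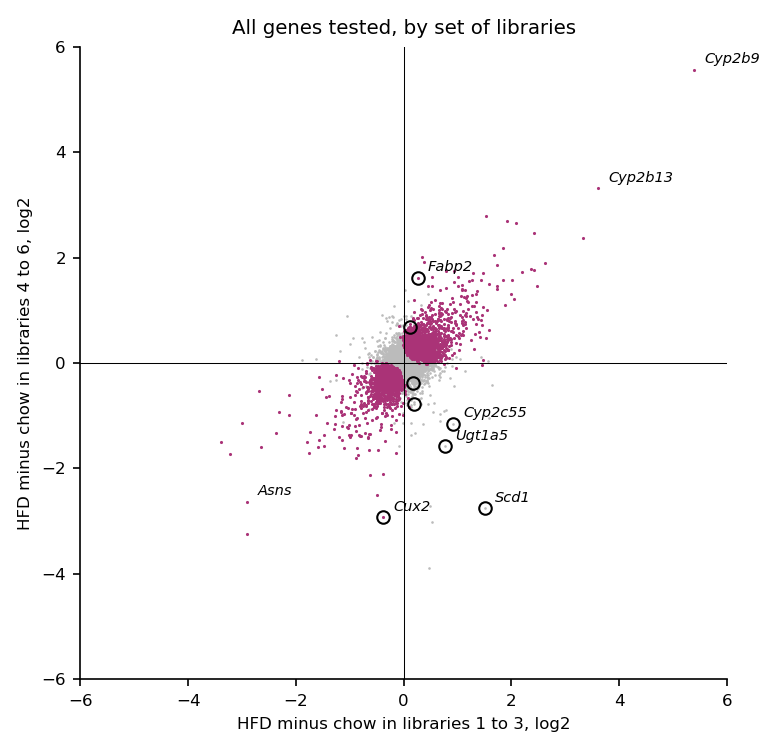
Difference of HFD from chow (log2) for the 13268 genes tested, in libraries 1 to 3 (x axis) and in libraries 4 to 6 (y axis), with 3 HFD and 3 chow livers in each set. Pink points are the 3880 genes called over both sets and grey points the others. Open circles mark the 8 genes whose difference differs between the sets, among them *Scd1* at 1.51 and -2.76, while *Asns* lies at -2.90 and -2.63.

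Cytochrome P450 genes were among those that rose most. *Cyp2b13*, a P450 of female-typical expression in mouse liver, had log2 values of 4.13, 4.28 and 4.46 (lowest, median and highest) in chow and of 5.96, 7.66 and 10.23 in HFD livers, a difference of 3.46 (SE 0.52, adjusted p = 0.000257). This is 11-fold on the deposited scale. *Cyp2a22*, another P450, had 7.16, 7.70 and 8.31 in chow and 9.69, 9.97 and 11.06 in HFD livers, a difference of 2.44 (SE 0.30, adjusted p = 5.02e-05). Neither gene overlapped between the diets, which was a condition of the choice of the largest differences. The HFD livers spread over more than 4 units for *Cyp2b13*, and both genes have close paralogs with which reads may be shared. *Cyp2b13* lies on chromosome 7 from 26846514 to 26881215 and *Cyp2a22* on chromosome 7 from 27716650 to 27724405 (mm9). *Slc22a27*, an organic anion transporter of a gene cluster, rose by 1.96 (adjusted p = 4.22e-05), with 2.20 within libraries 1 to 3 and 1.72 within libraries 4 to 6.

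Genes with functions outside the classical hepatocyte programme rose as strongly. *Themis*, named for its role in thymocyte selection, had 4.66, 5.07 and 5.95 in chow and 6.75, 7.42 and 8.17 in HFD livers, a difference of 2.37 (SE 0.27, adjusted p = 2.70e-05). The T cell gene *Cd3e* had medians of 3.33 in chow and 3.28 in HFD livers, and 3 of 21 tested markers of T, NK and B cells rose and 1 fell (14.3% and 4.76%), with 1 higher at a minimum mean of 5. *Cfd*, adipsin, the serine protease that activates the alternative complement pathway and is made in large amounts by adipocytes, had 3.98, 4.32 and 4.82 in chow and 6.00, 6.66 and 7.20 in HFD livers, a difference of 2.31 (SE 0.26, adjusted p = 2.24e-05). Of the 5 adipocyte markers tested, *Cfd* rose, *Pnpla2* fell, and *Fabp4*, *Lipe* and *Adrb3* were at 0.24, 0.13 and 0.04 without passing the test. *Fabp4* passed without chow library 3 and *Lipe* without chow libraries 5 and 6, both as higher. *Sema5b*, a semaphorin, had 5.70, 6.03 and 6.73 in chow and 7.88, 8.12 and 8.50 in HFD livers, a difference of 2.01 (adjusted p = 1.97e-05). *Osbpl3*, an oxysterol-binding protein homologue, rose by 2.16 (adjusted p = 0.000257), and *Tpm2*, a tropomyosin of the cytoskeleton, by 1.86 (adjusted p = 0.000117). *Themis*, *Cfd*, *Sema5b*, *Osbpl3* and *Tpm2* did not overlap between the diets, which was a condition of the choice of the largest differences.

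Further genes with small p-values rose by less. *Acot11*, an acyl-CoA thioesterase, was higher by 1.57 (SE 0.18, adjusted p = 2.24e-05) and *Uck1*, a uridine-cytidine kinase, by 0.92 (SE 0.10, adjusted p = 2.24e-05). *Samd9l*, a gene induced by interferons, had 7.61, 7.93 and 8.07 in chow and 8.77, 9.03 and 9.52 in HFD livers, a difference of 1.19 (SE 0.13, adjusted p = 1.81e-05). *Uba7*, the enzyme that activates the ubiquitin-like protein ISG15, rose by 0.82 (adjusted p = 2.85e-05), with 1.11 and 0.53 in libraries 1 to 3 and 4 to 6. The ubiquitin ligase gene *Trim7* rose by 1.18, the crystallin-like gene *Aim1l* by 1.33, the signalling adaptor *Stap1* by 0.99 and the sugar transporter *Slc50a1* by 0.55 (adjusted p of 2.85e-05, 3.72e-05, 3.72e-05 and 2.99e-05). All 8 separated the diets without overlap, and all 8 were called within each set alone, both of which their choice by small p-values favours.

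*Asns*, asparagine synthetase, which makes asparagine from aspartate and glutamine, was among the genes that fell most. *Asns* lies on chromosome 6 from 7625169 to 7643254 (mm9), and its log2 values were 7.87, 8.24 and 8.80 in chow and 4.68, 5.73 and 6.08 in HFD livers, a difference of -2.77 (SE 0.37, adjusted p = 9.61e-05). On the deposited scale it was 6.82-fold lower. The decrease was -2.90 in libraries 1 to 3 and -2.63 in libraries 4 to 6. *Cyp4a12b*, a male-typical fatty acid omega-hydroxylase with a near-identical copy, had 9.40, 10.53 and 10.72 in chow and 6.57, 7.94 and 9.20 in HFD livers, a difference of -2.47 (SE 0.35, adjusted p = 0.000162). *Serpina1e*, a member of the alpha-1 antitrypsin family whose copies can share reads, had 16.77, 17.41 and 17.70 in chow and 13.77, 15.38 and 16.20 in HFD livers, a difference of -2.12 (SE 0.34, adjusted p = 0.000423). *Moxd1*, a monooxygenase-like gene, differed by -3.07 (SE 0.83, adjusted p = 0.0150) and *Tff3*, a trefoil peptide, by -1.85 (SE 0.58, adjusted p = 0.0319), both with wide ranges among chow livers. Without chow libraries 5 and 6 they stood at -2.34 and -1.78 and missed the threshold (adjusted p = 0.106 and 0.103).

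Among the decreases with the smallest p-values were genes of protein turnover, a gluconeogenic enzyme gene and a cyclin gene. *Kcmf1*, a ubiquitin ligase, had 10.83, 10.95 and 11.13 in chow and 10.37, 10.39 and 10.50 in HFD livers, a difference of -0.54 (SE 0.05, adjusted p = 1.71e-05). *Nploc4*, a cofactor of the segregase VCP, fell by 0.46 and *Fbxo34*, an F-box protein gene, by 0.51 (adjusted p = 2.70e-05 and 2.45e-05). *Pck1*, which encodes the cytosolic phosphoenolpyruvate carboxykinase of gluconeogenesis, had 16.40, 16.89 and 17.12 in chow and 15.56, 15.67 and 16.02 in HFD livers, a difference of -1.10 (SE 0.13, adjusted p = 2.85e-05). *Ccnd3*, cyclin D3, fell by 0.42 (SE 0.05, adjusted p = 4.82e-05). *Dact2*, an antagonist of Wnt and TGF-beta signals, and the tubulin gene *Tuba8* differed by -1.52 each (adjusted p = 7.01e-05 and 0.000517) and *Emp2*, a tetraspan membrane protein gene, fell by 0.95 (adjusted p = 2.85e-05). *E030018B13Rik* fell by 1.42 (adjusted p = 0.0182), and it and *Tuba8* were named by the size of the difference and not by p. *Epb4.1l5*, *Fam98c*, *Gsto1*, *Tmem243* and *Zc3h14* fell by between 0.42 and 0.67. The 12 genes with the smallest p-values among the decreases had no overlap between the diets, which their choice by small p-values favours.

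**Figure D2:**
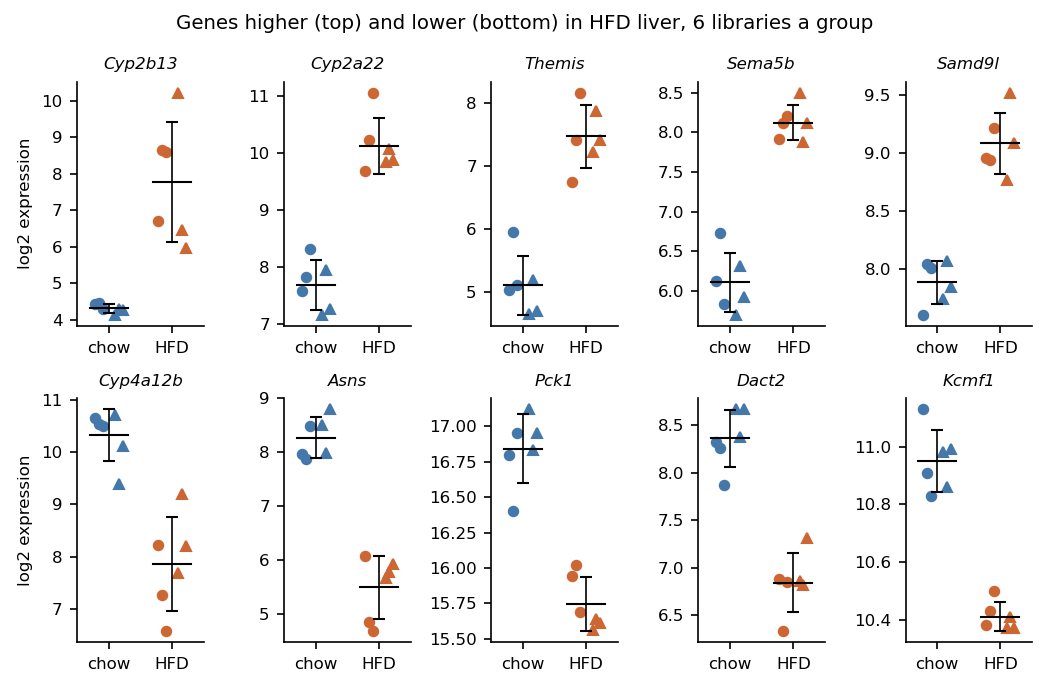
Log2 expression of 10 genes in the 6 chow (blue) and 6 HFD (orange) livers, with circles for libraries 1 to 3, triangles for libraries 4 to 6, and a black bar and whiskers for the mean and SD of 6. The 5 genes of the upper row lie higher in every HFD liver than in any chow liver and the 5 of the lower row lower, with differences from 3.46 for *Cyp2b13* to -2.77 for *Asns*. Lack of overlap was a condition of the choice of the largest differences, and a choice by small p-values favours it.

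Gene lists of pathways and cell types were then counted against the background of 14.2% higher and 15.0% lower over all genes. The lists farthest from it were the interferon response, with 77.3% of members higher, and the cytoplasmic ribosomal proteins, with 94.7% lower. Counts by set stand against 8.46% higher and 7.71% lower of all genes in libraries 1 to 3. In libraries 4 to 6 these shares were 9.47% and 10.5%. Counts without overlap stand against 4.18% of all genes higher and 5.55% lower.

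**Figure D3:**
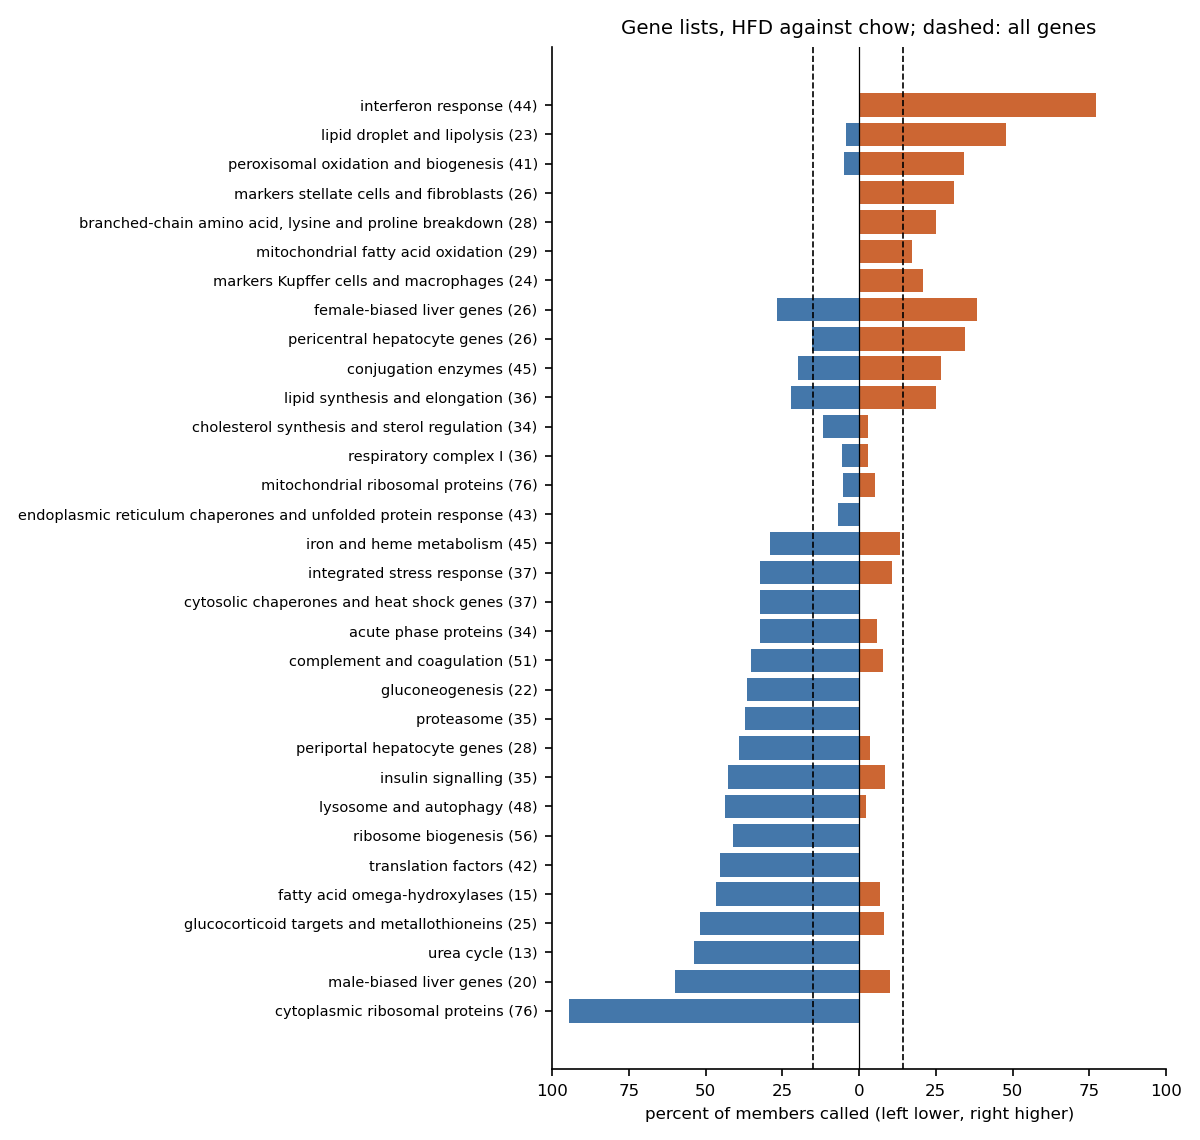
Percent of the tested members of 32 gene lists called higher (orange, right) or lower (blue, left) in HFD livers, with the number of members tested in parentheses and dashed lines at the 14.2% and 15.0% of all genes. The ribosomal proteins reach 94.7% lower and the interferon list 77.3% higher.

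Transcripts of male-biased liver genes were mostly lower. Of 20 male-biased genes tested, 12 fell (60%), 2 rose and 6 did not pass the test, with a median of -0.77. *Gstp1*, a glutathione transferase, had 13.22, 13.75 and 14.10 in chow and 11.87, 12.67 and 12.82 in HFD livers, a difference of -1.31 (SE 0.20, adjusted p = 0.000392). The complement gene *C6* fell by 1.03 (adjusted p = 0.000140) and *Mup7*, a major urinary protein whose copies are nearly identical, by 2.07 (adjusted p = 0.0211, chosen after its values were seen). Female-biased genes moved in both directions, with 10 of 26 higher (38.5%) and 7 lower (26.9%), or 4 lower without chow libraries 5 and 6. In libraries 1 to 3, 9 of them were higher and 2 lower, and in libraries 4 to 6, 5 were higher and 5 lower (8.46% and 9.47% of all genes were higher in these sets). *Sult3a1*, a sulfotransferase, rose by 0.53 (adjusted p = 0.00140) from a chow median of 2.15, close to the minimum. *Cux2*, a female-typical transcription factor in liver, differed by -1.66 (SE 0.40, adjusted p = 0.00807), mostly in libraries 4 to 6. The male-biased median was further below 0 in libraries 1 to 3, at -1.06 with 10 genes lower and none higher, than in libraries 4 to 6, at -0.44 with 5 genes lower and 3 higher (7.71% and 10.5% of all genes were lower in these sets). Between the sets only single genes were tested. Of 21 genes of the growth hormone axis, 3 rose (14.3%, near the 14.2% of all genes), with a list median of 0.01. In the same list 5 fell (23.8%, against 15.0% of all genes), or 2 without chow libraries 5 and 6 and 3 without HFD library 3. *Stat5a*, a signal transducer of the growth hormone receptor, rose by 0.60 (adjusted p = 0.00261), and *Hnf4a*, a nuclear receptor that maintains hepatocyte identity, had 14.57, 14.86 and 14.97 in chow and 14.01, 14.24 and 14.68 in HFD livers, a decrease of 0.55 (adjusted p = 0.00710) whose values overlapped.

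Drug-metabolising genes changed in no common direction. Of 35 oxidases of the Cyp2 and Cyp3 families and their regulators, 5 rose (14.3%) and 4 fell (11.4%), shares near the background, and 2 fell without chow library 4 or 6 or HFD library 1 or 6. Of 45 conjugating enzymes 12 rose and 9 fell (26.7% and 20%), and 7 of the higher and 8 of the lower genes had no overlap (4.18% and 5.55% of all genes). The sulfotransferase gene *Sult1c2* rose by 0.98 (adjusted p = 0.000162). *Gsto1*, a glutathione transferase of the omega class, had 11.57, 11.67 and 11.71 in chow and 11.05, 11.10 and 11.26 in HFD livers, a difference of -0.52 (SE 0.06, adjusted p = 2.00e-05). Of 27 targets of NRF2, the factor that senses oxidative stress, 8 fell (29.6%, 5 after quantile normalization), among them *Gsr*, glutathione reductase, by 0.42 (adjusted p = 0.000411), and 2 rose, among them *Taldo1*, transaldolase, by 0.31 (adjusted p = 0.00352).

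Transcripts of the cytoplasmic translation machinery were lower in HFD livers, and no member of its lists rose over the sets together. Of 76 cytoplasmic ribosomal protein genes tested, 72 fell (94.7%) and none rose, and the median difference was -0.36. Of the 76, 59 were lower without overlap, against 5.55% of all genes. *Rps28* had 11.08, 11.26 and 11.36 in chow and 10.51, 10.80 and 10.95 in HFD livers, a difference of -0.50 (SE 0.08, adjusted p = 0.000357). *Rps10* and *Rps16* fell by 0.48 and 0.46 (adjusted p = 0.000997 and 0.000822). The 4 members that did not pass the test, named after their values were seen, were *Rpl3*, *Rpl22*, *Rpl30* and *Rpl34*, with differences of -0.07, -0.15, -0.00 and -0.02, and *Rpl30* and *Rpl34* were low, with chow medians of 2.79 and 4.21. The decrease was of like size in both sets, with medians of -0.38 and -0.34 and with 56 and 59 genes lower within libraries 1 to 3 and 4 to 6. Ribosomal protein genes have many processed copies in the genome, so single values are uncertain where reads could be split. Of 56 genes that assemble ribosomes 23 fell (41.1%) and none rose, with 13 lower in libraries 1 to 3 and 12 lower and 2 higher in libraries 4 to 6. Examples are *Gnl3*, nucleostemin, which fell by 0.56 (adjusted p = 0.00127), *Ddx21*, an RNA helicase of the nucleolus, by 0.40 (adjusted p = 0.00124), and *Utp3* by 0.35 (adjusted p = 0.000788). Of 42 translation factors 19 fell (45.2%) and none rose, with *Eif5* lower by 0.47 (SE 0.08, adjusted p = 0.000533) and *Pabpc1*, the major cytoplasmic poly(A)-binding protein, lower by 0.35 (adjusted p = 0.00653). Libraries 1 to 3 had 16 of them lower and a median of -0.25, and libraries 4 to 6 had 4 lower and a median of -0.08. Over all genes, 7.71% and 10.5% were lower in these sets. Of 20 aminoacyl-tRNA synthetases, which charge tRNAs, 6 fell (30.0%), *Farsa* by 0.26 (adjusted p = 0.0100). By set, 5 synthetases were lower in libraries 1 to 3, and 1 was lower and 1 higher in libraries 4 to 6 (medians of -0.18 and 0.01). Of 76 mitochondrial ribosomal proteins 4 were higher and 4 lower (5.26% each), fewer than the background, and 2 were higher without chow library 6 or HFD library 4 or 5 (1 without chow libraries 5 and 6) and 2 lower without chow library 4 or HFD library 3. By set, 8 were lower and none higher in libraries 1 to 3, and 5 higher and none lower in libraries 4 to 6.

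Most interferon-stimulated genes rose and none fell. Interferons signal through transcription factors to a DNA element in the promoters of antiviral and antigen-processing genes. Of 44 such genes tested, 34 rose (77.3%) and none fell, with a median difference of 0.45. No overlap was seen for 13, against 4.18% of all genes higher without overlap. *Psmb9*, a subunit of the immunoproteasome, had 7.63, 7.86 and 8.23 in chow and 8.54, 8.65 and 8.86 in HFD livers, a difference of 0.74 (SE 0.09, adjusted p = 4.82e-05). *Dhx58*, a helicase that binds viral RNA, had 7.31, 7.71 and 7.95 in chow and 8.22, 8.37 and 8.53 in HFD livers, a difference of 0.68 (SE 0.10, adjusted p = 0.000257). The guanylate-binding protein gene *Gbp6* rose by 1.19 (adjusted p = 0.00121) and the chemokine gene *Cxcl10* by 0.76 (adjusted p = 0.00197), both chosen after their values were seen. Within libraries 1 to 3 and 4 to 6 alone, 21 and 20 members were higher (8.46% and 9.47% of all genes), with medians of 0.45 and 0.35. The members that missed the threshold include *Irf7* at 0.23, *Mx1* at 0.20 (called without chow library 3) and *Bst2* at -0.08, named after their values were seen. The mean level of the list lay between 7.63 and 7.95 in chow and between 8.01 and 8.40 in HFD livers. Beside it, the mean of the Kupffer cell and macrophage markers lay between 9.42 and 9.68 in chow and between 9.52 and 9.86 in HFD livers, and their part in the result was not tested.

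The promoters of these genes were read for the core of the interferon element, GAAANNGAA or its reverse complement TTCNNTTTC, from 250 bases before to 50 after the start (RefSeq, build GRCm38.p6). Of 33 interferon genes with a window 20 held it (60.6%), against 8.92% of the 9934 tested genes with a window. Of the 20 genes with a match 19 rose with a median of 0.53, and of the 13 without 9 rose with a median of 0.32. The STAT site TTCNNNGAA was read in the same windows. It was in 10 of the 33 genes (30.3%, against 8.65% of all). Of these 10 genes 7 rose with a median of 0.30, and of the 23 without 21 rose with a median of 0.52. Neither split was tested. The stretches before the start of *Isg15* (a ubiquitin-like protein), *Ifit1* (a sensor of viral RNA) and *Gbp3* (a guanylate-binding protein) are shown because matches stand close together in them. They were chosen after their values were seen, and each occurs once in mm9, at chr4:155574946-155575045 (minus strand), chr19:34715237-34715336 (plus strand) and chr3:142222908-142223007 (plus strand). Capitals mark the matches.
Isg15: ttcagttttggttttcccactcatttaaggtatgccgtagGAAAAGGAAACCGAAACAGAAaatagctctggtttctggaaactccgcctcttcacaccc
Ifit1: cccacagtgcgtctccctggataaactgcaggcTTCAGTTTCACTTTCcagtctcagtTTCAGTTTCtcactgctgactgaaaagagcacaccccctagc
Gbp3: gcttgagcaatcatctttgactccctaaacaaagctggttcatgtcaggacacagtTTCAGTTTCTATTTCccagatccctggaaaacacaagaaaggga
*Isg15* holds 3 overlapping matches from base -78, *Ifit1* 3 and *Gbp3* 2. The transcripts of these genes were higher in HFD livers by 0.70, 0.73 and 0.69 (adjusted p = 0.00530, 0.00690 and 0.00316). A match is a run of letters in the window and not a measured binding site.

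More genes of the integrated stress response fell than rose. In that response ATF4 raises amino acid synthesis and transport when amino acids are short. Of 37 members tested, 12 fell (32.4%) and 4 rose (10.8%). Beside *Asns*, *Trib3*, a pseudokinase that restrains AKT, had 7.80, 7.97 and 8.05 in chow and 6.85, 7.26 and 7.52 in HFD livers, a difference of -0.71 (SE 0.12, adjusted p = 0.000871). *Eif4ebp1*, a brake on cap-dependent translation, fell by 0.48 (SE 0.07, adjusted p = 0.000255), and *Slc38a2*, an amino acid transporter, by 0.79 (adjusted p = 0.00136, chosen after its values were seen). *Fgf21* at 0.45 and *Chac1* at 0.17, named after their values were seen, did not pass the test. The core of the ATF4 element, TGATGNAA or TTNCATCA, was in the promoter windows of 10 of 33 members (30.3%) against 2.95% of all, and of these 10 genes 2 rose, 2 fell and 6 did not pass the test. *Asns* and *Vldlr*, the very low density lipoprotein receptor, are shown as the members with a match that fell and rose most, at chr6:7643210-7643309 (minus strand) and chr19:27291264-27291363 (plus strand) of mm9, with the match in capitals.
Asns: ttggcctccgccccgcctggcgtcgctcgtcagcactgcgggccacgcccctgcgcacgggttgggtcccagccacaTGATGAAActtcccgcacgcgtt
Vldlr: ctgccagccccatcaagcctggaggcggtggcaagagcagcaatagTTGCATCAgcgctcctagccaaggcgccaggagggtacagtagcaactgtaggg
*Asns* fell by 2.77 while *Vldlr* rose by 1.59 (adjusted p = 0.000319). The paper states that the HFD decreased *Vldlr* mRNA, unlike the deposited values used here. Counted from the RefSeq start, the match is at base -23 in *Asns* and at base -200 in *Vldlr*. The GENCODE spans of these genes start further upstream, at 7643254 (minus strand) and 27290974 (plus strand), so both matches lie inside them.

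Of 29 amino acid transporters 9 fell (31.0%) and 5 rose (17.2%, 3 without chow libraries 5 and 6). *Slc7a2*, a carrier of arginine and lysine, had 14.30, 14.79 and 15.26 in chow and 13.22, 13.76 and 14.07 in HFD livers, a difference of -1.05 (SE 0.18, adjusted p = 0.000869). *Slc16a10*, a carrier of aromatic amino acids, fell by 0.63 (adjusted p = 0.000444), and *Slc17a8*, a vesicular glutamate transporter, rose by 1.28 (adjusted p = 0.000986). The urea cycle list of 13 genes had 7 lower (53.8%) and none higher. Argininosuccinate lyase, *Asl*, had 14.26, 14.43 and 15.17 in chow and 13.45, 13.77 and 14.07 in HFD livers, a difference of -0.83 (SE 0.18, adjusted p = 0.00441). Argininosuccinate synthase, *Ass1*, fell by 0.69 and the liver glutaminase *Gls2*, which supplies ammonia, by 0.53 (adjusted p = 0.0132 and 0.00262). *Cps1* and *Arg1* fell by 0.60 and 0.46, without overlap (*Cps1* missed the threshold after quantile normalization), while *Otc* was at 0.03 and did not pass the test. Enzymes that break down amino acids moved in both directions. *Tat*, tyrosine aminotransferase, fell by 1.14 (adjusted p = 0.00770) and *Hgd*, homogentisate dioxygenase, by 0.44 (adjusted p = 0.00418), whereas *Ido2*, of tryptophan breakdown, rose by 0.47 (adjusted p = 0.00201). Of 28 genes of branched-chain amino acid, lysine and proline breakdown 7 rose (25%, 12 after quantile normalization) and none fell, *Mccc1*, a subunit of methylcrotonyl-CoA carboxylase, by 0.41 (adjusted p = 0.000906). The mitochondrial glyoxylate aminotransferase *Agxt2* rose by 0.66 (SE 0.08, adjusted p = 5.78e-05) and *Agxt* fell by 0.52 (adjusted p = 0.00703), each without overlap.

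Of 22 gluconeogenic genes 8 fell (36.4%, 5 without chow library 4) and none rose. *Got1*, the cytosolic aspartate aminotransferase, had 12.54, 13.28 and 14.49 in chow and 11.62, 11.93 and 12.80 in HFD livers, a difference of -1.35 (SE 0.27, adjusted p = 0.00224), with some overlap. *Sik1*, a kinase induced by glucagon signals, fell by 0.81 (adjusted p = 0.00821). Of 25 glucocorticoid targets and metallothioneins 13 fell (52.0%) and 2 rose (8.0%). The count of lower genes was 8 without chow library 3, HFD library 3 or HFD library 6, and also 8 without chow libraries 5 and 6 or after quantile normalization. *Klf9*, a direct target of the glucocorticoid receptor, had 11.51, 11.68 and 11.99 in chow and 10.88, 11.19 and 11.46 in HFD livers, a difference of -0.53 (SE 0.12, adjusted p = 0.00557). The receptor gene *Nr3c1* was at 0.03 and did not pass the test. In glycogen metabolism *Ppp1r3b* rose by 0.96 (adjusted p = 0.00184) and *Ppp1r3g* fell by 1.38 (adjusted p = 0.000853). Both encode subunits that direct protein phosphatase 1 to glycogen, and both differences were larger in libraries 4 to 6 (1.46 and -2.13) than in libraries 1 to 3 (0.45 and -0.62), without passing the test between the sets. *Gaa*, the glucosidase that degrades glycogen in lysosomes, fell by 0.51 (adjusted p = 0.000167). Of 35 genes of insulin signalling 15 fell (42.9%, 9 without chow libraries 5 and 6) and 3 rose. *Irs2*, the insulin receptor substrate that is raised by fasting in liver, had 8.62, 8.72 and 9.16 in chow and 7.86, 8.05 and 8.39 in HFD livers, a difference of -0.73 (SE 0.12, adjusted p = 0.000515), and *Pdpk1*, the kinase that activates AKT, fell by 0.31 (adjusted p = 0.000697).

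Hepatocytes around the portal vein and around the central vein express different enzymes. Of 28 periportal genes 11 fell (39.3%) and 1 rose, 7 of the lower genes without overlap (5.55% of all genes). Several of them are the urea cycle and gluconeogenic genes given above. Of 26 pericentral genes 9 rose (34.6%) and 4 fell (15.4%). *Aldh1a1*, which oxidises retinaldehyde, had 14.52, 15.21 and 15.47 in chow and 15.80, 16.11 and 16.19 in HFD livers, a difference of 0.88 (SE 0.15, adjusted p = 0.000646), with 0.88 in each set. *Slc1a4*, a neutral amino acid carrier, rose by 0.63 (adjusted p = 0.00166), and *Avpr1a*, the vasopressin receptor of hepatocytes, fell by 1.05 (adjusted p = 0.00255).

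Among genes of lipid droplets and of peroxisomes, more rose than fell. Lipid droplets are the stores that fill hepatocytes in fatty liver. Of 23 droplet and lipolysis genes 11 rose (47.8%) and 1 fell. *Fitm1*, which promotes droplet formation, had 8.32, 9.18 and 10.03 in chow and 10.03, 10.16 and 10.41 in HFD livers, a difference of 0.98 (SE 0.21, adjusted p = 0.00393), and *Ces1g*, a carboxylesterase with close paralogs, rose by 0.95 (adjusted p = 0.00389). The member that fell was *Pnpla2*, adipose triglyceride lipase, which hydrolyses stored triglyceride. It had 11.58, 11.80 and 12.14 in chow and 11.12, 11.16 and 11.53 in HFD livers, a difference of -0.59 (SE 0.11, adjusted p = 0.00120). Peroxisomes shorten very long fatty acids, and 14 of 41 of their genes rose (34.1%) while 2 fell. The fatty acyl-CoA transporter gene *Abcd2* rose by 1.20 (adjusted p = 0.00216), from 8.41, 8.89 and 9.83 in chow to 9.92, 10.19 and 10.62 in HFD livers. *Pecr*, a peroxisomal enoyl-CoA reductase, rose by 0.44 (adjusted p = 0.000873). By set, 6 peroxisomal genes rose and 3 fell in libraries 1 to 3, and 11 rose and none fell in libraries 4 to 6. Over all genes, 8.46% were higher and 7.71% lower in the former set, and 9.47% and 10.5% in the latter.

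Omega-hydroxylases, microsomal P450s that start the oxidation of fatty acids from the methyl end, went the opposite way. Of 15 genes 7 fell (46.7%) and 1 rose. *Cyp4a10* had 15.02, 15.38 and 15.46 in chow and 14.08, 14.38 and 14.69 in HFD livers, a difference of -0.92 (SE 0.12, adjusted p = 0.000102), and *Cyp4f13* fell by 0.43 (adjusted p = 0.000566). *Aldh3a2*, a fatty aldehyde dehydrogenase and the 1 member that rose, was at 0.82 (adjusted p = 0.00458). *Ppara*, a receptor that induces *Cyp4a10* and peroxisomal genes, rose by 0.38 without overlap (adjusted p = 0.0219). The Cyp4a genes stand side by side on chromosome 4 and are alike in sequence, so their single values are uncertain. Mitochondrial fatty acid oxidation had 5 of 29 genes higher (17.2%, 9 without chow library 2, 3 without chow libraries 5 and 6, and 13 after quantile normalization) and none lower. By set, 3 rose and 2 fell in libraries 1 to 3, and 12 rose and none fell in libraries 4 to 6 (8.46% and 9.47% of all genes were higher in these sets). *Acad10*, an acyl-CoA dehydrogenase homologue, rose by 0.54 (SE 0.08, adjusted p = 0.000247) and *Hadh* by 0.44 (adjusted p = 0.00218), while *Cpt1a*, which admits fatty acids to mitochondria, was at 0.02 without passing the test (chosen after its values were seen). Lipid synthesis and elongation had 9 of 36 higher and 8 lower, and the count of lower genes was 3 without chow library 1, chow library 6, HFD library 3 or HFD library 5, 4 without chow library 4, HFD library 4, HFD library 6 or chow libraries 5 and 6, and 5 without HFD library 1. *Elovl2*, an elongase of polyunsaturated fatty acids, had 13.65, 14.01 and 14.21 in chow and 13.12, 13.39 and 13.44 in HFD livers, a difference of -0.62 (SE 0.11, adjusted p = 0.000772). *Agpat2*, of phosphatidic acid synthesis, rose by 0.41 (adjusted p = 0.00933). In sphingolipid synthesis *Cers2*, the synthase of very long ceramides, rose by 0.32 and *Degs1*, dihydroceramide desaturase, fell by 0.31 (adjusted p = 0.00125 and 0.000976), both without overlap. *Apom*, the apolipoprotein that carries sphingosine 1-phosphate, had 12.64, 12.83 and 13.10 in chow and 11.46, 11.79 and 12.13 in HFD livers, a difference of -1.09 (SE 0.15, adjusted p = 0.000116). Of 34 genes of cholesterol synthesis and its regulation 1 rose and 4 fell (2.94% and 11.8%), below the background in both directions, with 2 lower without chow libraries 5 and 6 or after quantile normalization. *Cyp27a1*, of bile acid synthesis, fell by 0.43 (adjusted p = 0.00503), and *Klb*, the coreceptor of FGF19-family hormones, by 0.48 (adjusted p = 0.00129).

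Among genes of secreted plasma proteins, more fell than rose in the complement and coagulation list. Of 51 complement and coagulation genes 18 fell (35.3%) and 4 rose (7.84%, 2 without HFD library 3 and 8 after quantile normalization). By set, 5 were higher and 4 lower in libraries 1 to 3 (8.46% and 7.71% of all genes). In libraries 4 to 6, 1 was higher and 18 lower, against 9.47% and 10.5% of all genes. *C8b*, a part of the membrane attack complex, fell by 0.95 (adjusted p = 0.00156), whereas *Cfd* rose by 2.31. Of 34 acute phase genes 11 fell (32.4%), but the count was 6 without chow library 6, 7 without chow library 5, 6 without HFD library 4, 6 without chow libraries 5 and 6 and 5 after quantile normalization. *Lbp*, the lipopolysaccharide-binding protein, had 11.96, 12.15 and 12.27 in chow and 11.39, 11.62 and 12.02 in HFD livers, a difference of -0.50 (SE 0.10, adjusted p = 0.00313). *Steap4*, a metalloreductase, rose by 0.74 and *Saa4*, a constitutive apolipoprotein of the serum amyloid A family, by 0.77 (adjusted p = 0.00503 and 0.00603). Of 38 hepatokines and secreted factors 9 rose (23.7%, 5 without chow libraries 5 and 6) and 8 fell (21.1%, 5 without HFD library 3 or chow libraries 5 and 6). In this list *Leap2*, the antagonist of the ghrelin receptor, had 8.34, 9.0 and 9.09 in chow and 9.72, 9.99 and 10.39 in HFD livers, a difference of 1.17 (SE 0.19, adjusted p = 0.000578). *Fetub*, fetuin B, had 14.11, 14.17 and 14.23 in chow and 13.52, 13.60 and 13.77 in HFD livers, a difference of -0.55 (SE 0.10, adjusted p = 0.00106). Neither overlapped between the diets.

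Genes of iron and heme metabolism moved in both directions. Of 45 tested 6 rose (13.3%) and 13 fell (28.9%). The heme synthesis enzymes *Cpox* and *Alad* rose by 0.48 and 0.39 (adjusted p = 0.000343 and 0.00261), *Cpox* from 11.80, 11.97 and 12.23 in chow to 12.30, 12.44 and 12.59 in HFD livers. *Alas2*, the erythroid form of the enzyme that begins heme synthesis, rose by 0.40 (adjusted p = 0.00517). *Hamp*, hepcidin, the hormone that limits iron export, had 12.73, 13.38 and 13.63 in chow and 11.04, 12.17 and 12.93 in HFD livers, a difference of -1.16 (SE 0.27, adjusted p = 0.00581, chosen after its values were seen), and *Atoh8*, a transcription factor of the BMP response, fell by 0.82 (adjusted p = 0.00141). The coreceptor gene *Hfe2*, hemojuvelin, rose by 0.43 (adjusted p = 0.00354).

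Genes of protein degradation were more often lower than higher. Of 35 proteasome genes 13 fell (37.1%) and none rose. The count was 8 without HFD library 2, HFD library 3 or chow library 1 and 8 after quantile normalization. In the sets alone, 25 members were lower in libraries 1 to 3 and 2 in libraries 4 to 6, and the medians were -0.32 and -0.02. Over all genes, 7.71% and 10.5% were lower in these sets. *Psmd9*, an assembly chaperone of the proteasome, was lower in both sets, with 10.20, 10.35 and 10.50 in chow and 9.55, 9.81 and 9.93 in HFD livers and a difference of -0.56 (SE 0.08, adjusted p = 0.000110). Of 37 genes of cytosolic chaperones and heat shock proteins 12 fell (32.4%, 6 without HFD library 2 or 3 and 7 without chow library 1) and none rose. Libraries 1 to 3 had 18 lower, none higher and a median of -0.34, and libraries 4 to 6 had 2 lower, 3 higher and a median of 0.01. Over all genes, 8.46% and 9.47% were higher in these sets. *Cct2*, of the TRiC chaperonin, fell by 0.27 (adjusted p = 0.00868) and *Fkbp5*, a cochaperone induced by glucocorticoids, by 0.82 (adjusted p = 0.0204), with -0.42 in libraries 1 to 3 and -1.22 in libraries 4 to 6. No chaperone or proteasome gene passed the test of the difference between the sets. Chaperones of the endoplasmic reticulum had 3 of 43 lower and none higher (6.98% lower), fewer than the background. Lysosome and autophagy genes had 21 of 48 lower (43.8%) and 1 higher, with 12 lower without chow libraries 5 and 6 and 11 after quantile normalization. *Grn*, progranulin, fell by 0.44 (adjusted p = 0.000568) and *Sqstm1*, the autophagy receptor p62, by 0.36 (adjusted p = 0.00505), without overlap.

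Few respiratory chain genes passed the test. Of 36 genes of complex I 1 rose and 2 fell (2.78% and 5.56%), and of 41 genes of complexes III and IV and ATP synthase none rose and 2 fell (4.88%), so both lists held fewer calls than the 29.2% of all genes. With 1 library left out, 0 to 2 genes of complex I rose and 1 to 4 fell, and 0 or 1 of the other complexes rose and 1 to 5 fell, with the most decreases without HFD library 6. Without chow libraries 5 and 6, 4 genes of each list fell. *Ndufs7* fell by 0.26 (adjusted p = 0.0240) and *Atp5o* by 0.23 (adjusted p = 0.0363). In the TCA cycle list 7 of 28 rose (25%) and 1 fell. *Mpc1*, a subunit of the mitochondrial pyruvate carrier, had 11.98, 12.13 and 12.18 in chow and 12.26, 12.46 and 12.53 in HFD livers, a difference of 0.34 (SE 0.06, adjusted p = 0.000842), and *Suclg2*, a subunit of succinyl-CoA ligase, rose by 0.43 (adjusted p = 0.00172). Of 24 clock genes 3 rose (5 without chow library 4) and 3 fell (12.5% each), near the background, with *Per2* higher by 0.58 (adjusted p = 0.00511).

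Markers of hepatocytes and of the other liver cells were counted in the same way. Of 18 hepatocyte markers 8 fell (44.4%, 5 after quantile normalization) and none rose, and the mean of the list lay between 16.71 and 17.06 in chow and between 16.35 and 16.56 in HFD livers, without overlap, although *Alb* and *Ttr* at -0.09 and 0.24 did not pass the test. *Ttr* passed as higher after quantile normalization, at a minimum mean of 5, with no variance trend and without HFD library 5. *Apoa1*, also a defining hepatocyte marker, had 17.49, 17.81 and 18.21 in chow and 17.04, 17.38 and 17.6 in HFD livers, with overlap. Of 24 markers of Kupffer cells and macrophages 5 rose (20.8%) and none fell, with 2 without chow library 3 or HFD library 3, 3 without chow library 1, HFD library 1, 2 or 4 or chow libraries 5 and 6, 8 without HFD library 6 and 9 after quantile normalization. *Clec4f*, which marks Kupffer cells, had 11.21, 11.44 and 11.59 in chow and 11.64, 11.80 and 11.89 in HFD livers, a difference of 0.36 (SE 0.09, adjusted p = 0.00918), while the Kupffer cell genes *Timd4* and *Vsig4* were at 0.14 and 0.08 and did not pass. By set, 9 of these markers rose in libraries 1 to 3 and none in libraries 4 to 6 (8.46% and 9.47% of all genes). Of 15 markers of lipid-associated macrophages 7 rose (46.7%, 2 with a minimum mean of 5) and 1 fell (6.67%, 0 or 1 with a library left out). *Itgax*, CD11c, rose by 0.59 (adjusted p = 0.00368) and *Capg* by 0.43 (adjusted p = 0.0189), whereas *Trem2*, which defines these cells, was at 0.22 and passed, of the alternatives run, only without HFD library 1 (0.35, adjusted p = 0.0891). *Gpnmb*, also a defining marker of these cells, had 3.88, 4.02 and 4.91 in chow and 3.84, 5.04 and 5.81 in HFD livers, with overlap. Of 26 markers of stellate cells and fibroblasts 8 rose (30.8%) and none fell, with 2 without chow library 6 or HFD library 3, 3 without chow library 1 or 4 or HFD library 2, 4 without HFD library 6, 5 without HFD library 4 or after quantile normalization, and 14 without chow library 5. *Ngfr* rose by 0.44 (adjusted p = 0.0215), and *Reln*, *Des* and *Dcn* were at 0.30, 0.07 and 0.10 without passing, although *Reln* passed without chow library 2 or 5. *Lrat*, also a defining gene of stellate cells, had 7.79, 8.38 and 8.83 in chow and 8.58, 8.72 and 9.33 in HFD livers, with overlap. Markers of sinusoidal endothelium (1 of 22 higher, 2 lower) and of cholangiocytes (0 of 12 higher, 1 lower) were called less often than all genes, and *Stab2*, *Lyve1* and *Krt19* did not pass the test.

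The diet effect of 8 genes differed between the sets. *Scd1*, stearoyl-CoA desaturase, which makes monounsaturated fatty acids, had 13.99, 14.03 and 14.18 in chow libraries 1 to 3 and 14.61, 16.06 and 16.06 in the HFD libraries of that set, a difference of 1.51. In libraries 4 to 6 chow livers had 16.82, 16.13 and 16.11 and HFD livers 14.29, 12.99 and 13.48, a difference of -2.76. The HFD livers were thus all above the chow livers in libraries 1 to 3 and all below in libraries 4 to 6, and the differences differed by -4.27 (adjusted p = 0.00188). Over both sets *Scd1* was at -0.63 and was not called. The P450 gene *Cyp2c55* turned in the same way, with 0.91 in libraries 1 to 3 and -1.15 in libraries 4 to 6 (difference -2.06, adjusted p = 0.00271). So did *Ugt1a5*, a glucuronosyltransferase that shares its last exons with the other Ugt1a genes, with 0.76 and -1.58 (difference -2.34, adjusted p = 0.0433).

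Of the other 5 genes, *Cux2*, *Fabp2* and *Def8* had 1 sign in both sets, and the values of *Cdk1* and *Knstrn* had opposite signs. *Cux2* was at -0.39 in libraries 1 to 3 and -2.92 in libraries 4 to 6 (difference -2.52, adjusted p = 0.0433), with 6.96, 7.23 and 7.74 in chow and 4.99, 4.23 and 3.96 in HFD livers of the latter. *Fabp2*, the fatty acid-binding protein of the intestine that liver also expresses, was at 0.26 and 1.62 (difference 1.36, adjusted p = 0.00753). *Def8* was at 0.12 and 0.69 (difference 0.57, adjusted p = 0.0743). The mitotic kinase gene *Cdk1* was at 0.20 and -0.77 (difference -0.97) and the spindle gene *Knstrn* at 0.18 and -0.38 (difference -0.56), both with adjusted p = 0.0743 and both named after their values were seen. *Hsph1* and *Hnrnpm*, next by p among the genes with a larger difference in libraries 4 to 6, missed the threshold (adjusted p = 0.128 each). Of 42 cell cycle genes, 2 were higher (4.76%, 1 without chow libraries 5 and 6) and 7 lower (16.7%) over both sets. These shares are below the 14.2% and near the 15.0% of all genes. By set, 7 were higher and 2 lower in libraries 1 to 3 (8.46% and 7.71% of all genes). In libraries 4 to 6, 1 was higher and 14 lower (9.47% and 10.5% of all genes). Cholesterol synthesis had medians of 0.14 and -0.35 in the sets and the acute phase list -0.02 and -0.50, the latter with the high acute phase values of chow libraries 5 and 6 on the side of libraries 4 to 6. No further gene of these lists passed the test between the sets. A batch cannot be told apart from anything else that differed between libraries 1 to 3 and 4 to 6.

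**Figure D4:**
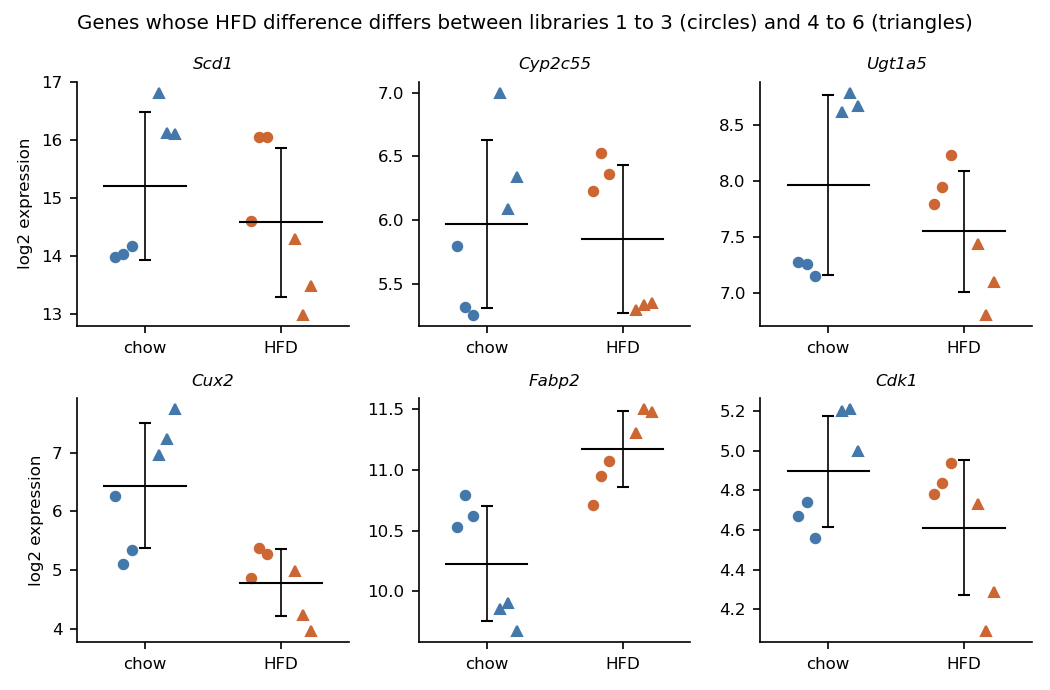
Log2 expression of 6 genes in chow (blue) and HFD (orange) livers, with circles for libraries 1 to 3, triangles for libraries 4 to 6, and a black bar and whiskers for the mean and SD of 6. For *Scd1* the HFD circles lie above the chow circles (1.51) and the HFD triangles below the chow triangles (-2.76), while *Fabp2* differs mainly among the triangles (1.62).

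**Figure D5:**
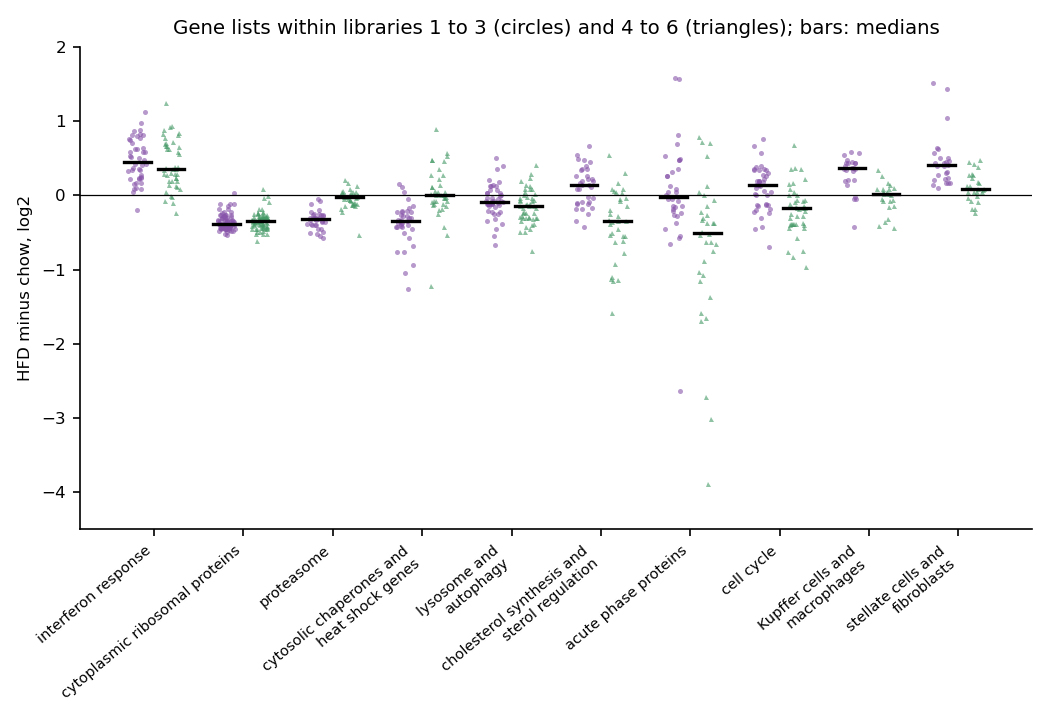
Difference of HFD from chow (log2) of every tested member of 10 gene lists in libraries 1 to 3 (purple circles) and in libraries 4 to 6 (green triangles), with black bars for the medians. The medians of the interferon list (0.45 and 0.35) and of the ribosomal proteins (-0.38 and -0.34) are alike in the sets, and those of the proteasome (-0.32 and -0.02) and the cytosolic chaperones (-0.34 and 0.01) are not.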

How the data were processed

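Values were taken from 1 table of log2 expression per gene and library, as the authors deposited it, with 18 columns that matched the labels and 0 columns of other samples. Per the study's methods and the submitters' processing notes, the authors aligned reads to mm9 with TopHat2 2.0.11, counted them per gene with HTSeq 0.6.1, normalized with DESeq2 1.6.3 and used limma to remove effects of the batches in which samples were processed; the step to the log2 scale is not given in the sources used here. The deposited values run from -3.98 to 21.4, and 3620 of 20512 genes are listed at 0 in every library. Removing a batch before deposit levels the set means, and a fit that ignores it counts too many degrees of freedom.

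Genes with a mean of at least 2 over 18 libraries were kept (13268). They were fitted with limma 3.58.1 in R 4.3.3 (trend), with group and set as terms, over all 18 libraries (14 residual degrees of freedom). No pseudocount was added. Differences within each set and between the sets came from the means of group and set together (12 residual degrees of freedom). Adjusted p-values are Benjamini-Hochberg values over all genes tested, two-sided, called under 0.1. No counts were given, so no counting interval was computed. P-values set each difference against the spread between mice within groups. That spread was estimated over all 18 libraries, the AC261066 group included, and drawn toward a trend over all genes.

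Named genes were the 12 of each sign with the smallest p, the 8 of each sign with the largest difference among called genes with a mean of at least 5 and no overlap, up to 3 called members of each list by p, and 4 of each sign by the test between the sets. Names used in the paper or in an earlier account were left out of all but the last of these, and members of short lists and defining markers were added. The text says so where a gene outside this rule, or a promoter, was picked with its values in view. The members and the 65 lists were chosen with earlier results of these data known. No p was computed over a list.

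On data simulated for HFD against chow over 13268 genes, the fit recovered 92 of 100 genes changed by 0.5 and 100 of 100 changed by 1, with 9% false calls (13.8% without the set term). The simulated noise was normal and independent between libraries, and far fewer genes were changed than were called in the data. These rates check the fit and do not carry over to the data. Alternatives were other minimums, normalizations, terms, thresholds and sets of libraries, each library left out in turn and, chosen after seeing the data, chow libraries 5 and 6 left out. Promoter windows came from RefSeq (GRCm38.p6), and printed stretches were placed by exact match to the mm9 genome; gene positions are those of GENCODE for mm9. Python 3.11.15 with pandas 2.3.3, numpy 2.4.6 and matplotlib 3.10.9 was used.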

Additional observations from a re-analysis of the deposited data

Results flagged for a closer look

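Of 342 groups of 6 libraries (the chow and the HFD values of the genes named with a difference), 14 held a library far from the other 5 by Dixon's test (4.09%). Chance gives about 1 in 20. The outlying chow values were *Agxt* at 13.08 in library 3 (next 12.67), *Lyve1* at 10.48 in library 3 (next 9.25), *Serpina1e* at 16.77 in library 4 (next 17.36), *Slc50a1* at 7.70 in library 4 (next 7.54), *Sik1* at 9.05 in library 2 (next 9.82) and *Tpm2* at 7.45 in library 2 (next 6.49). The outlying HFD values were *Eif4ebp1* at 9.44 in library 5 (next 9.67), *Fgf21* at 7.61 in library 4 (next 6.85), *Nr3c1* at 11.11 in library 4 (next 11.22), *Mpc1* at 12.26 in library 2 (next 12.45), *Pnpla2* at 11.53 in library 2 (next 11.24), *Tpm2* at 8.08 in library 6 (next 8.36), *Tuba8* at 4.64 in library 1 (next 5.25) and *E030018B13Rik* at 4.23 in library 3 (next 5.32).

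The effect of the diet differed between the sets (libraries 4 to 6 minus libraries 1 to 3, log2) by -4.27 for *Scd1*, -2.06 for *Cyp2c55*, -2.34 for *Ugt1a5*, -2.52 for *Cux2*, -0.97 for *Cdk1*, -0.56 for *Knstrn*, 1.36 for *Fabp2* and 0.57 for *Def8* in limma's test of that difference.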

How the results depend on the processing

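The count of 3880 genes stayed within 1.5 times under every alternative run, from 2772 at an adjusted p under 0.05 to 4351 with the 12 chow and HFD libraries alone, and lay between 3083 and 3946 with 1 library left out. Replicate numbers did not pair the samples (correlations of deviations from -0.17 to 0.21), and with the replicate block 3636 genes were called. Without chow libraries 5 and 6, chosen after seeing the data, 2824 genes were called, 2588 of them among the 3880.

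Within libraries 1 to 3, 922 genes were called from the 9 libraries of the set alone and 1131 at an adjusted p under 0.05, and 710 (without HFD library 3) to 2570 (without HFD library 1) with a library left out. Within libraries 4 to 6, 1639 were called at an adjusted p under 0.05 and 1093 (without chow library 6) to 2256 (without chow library 5) with a library left out. The 8 genes that differed between the sets became 5 after quantile normalization, 5 at an adjusted p under 0.05, and 3 to 54 with a library left out (54 without HFD library 1). The cause was not tested.

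Genes that missed the threshold and passed it under some alternative were *Cdk1* (quantile normalization, without chow library 3, without HFD library 3), *Fabp4*, *Lipe*, *Mx1*, *Reln*, *Trem2* and *Ttr* in the settings named with their values, and *Rpl22* (12 chow and HFD libraries). Signs turned only for genes that were not called. After quantile normalization *Adrb3* was at -0.06, *Alb* at 0.00, *Des* at -0.01 and *Rpl3* at 0.00. With equal medians *Rpl30* was at 0.01. Without chow libraries 5 and 6 *Cpt1a* was at -0.03, *Cyp2c55* at 0.03, *Hnrnpm* at -0.01, *Knstrn* at 0.00, *Otc* at -0.00, *Rpl30* at 0.02, *Saa1* at 0.46 and *Ugt1a5* at 0.05. With 1 library left out, the uncalled differences ran from -0.07 to 0.10 for *Adrb3*, from -0.07 to 0.01 for *Cd3e*, from -0.02 to 0.35 for *Chac1*, from -0.00 to 0.06 for *Cpt1a*, from -0.27 to 0.10 for *Cyp2c55*, from -0.16 to 0.17 for *Lyve1*, from -0.02 to 0.08 for *Otc*, from -0.03 to 0.04 for *Rpl30* and from -0.07 to 0.01 for *Rpl34*.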
